A study of Mus musculus with 12 samples.

Results

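The response of cultured neonatal mouse cardiomyocytes to phenylephrine (PE) was measured here in the presence of a negative-control GapmeR. PE is a small-molecule agonist of alpha1-adrenergic receptors, and a GapmeR is a short antisense oligonucleotide with a DNA core that recruits RNase H to a matching RNA. The comparison set the 3 libraries labelled PE with the control oligonucleotide against the 3 labelled PBS with the same control oligonucleotide. These are 6 of the 12 libraries of the study. The other 6 carry a GapmeR against lincRNA-p21 with the same PBS and PE treatments. They entered the model for its estimate of spread and are otherwise used only to say where the response differs with the knockdown. All cells of both groups therefore carry a control oligonucleotide, and PE was present for 24 hours. The mouse strain, the exact age and the PE concentration are not given in the sources used here. Nothing in the labels says that the 3 libraries of a group came from separate cultures or animals, so the p-values rest on a spread between libraries that may be technical. All genes were compared: 55416 were counted and 21799 were tested.

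Alpha1-adrenergic receptors couple to the G protein Gq, which activates phospholipase C, calcium release and protein kinase C. In cardiomyocytes this leads to the extracellular signal-regulated kinases (ERK), to calcineurin and to actin assembly, and it is a standard way to enlarge these cells in culture. Genes known to follow include immediate early transcription factors, targets of serum response factor (SRF), natriuretic peptides and the machinery that builds ribosomes.

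The libraries were alike in depth, with 21330609 to 21836360 reads in genes. PBS replicate 2 stood apart from its group: its pairwise chi-square per degree of freedom to the other PBS libraries was 22.8 and 22.1, against 2.42 between those, and it held the largest mitochondrial share of the 6 libraries (6.36% to 10.7%). The PE libraries also differed among themselves, by 23.0 between replicates 1 and 3, 10.7 between 2 and 3 and 9.36 between 1 and 2. The fit with all libraries called 5543 genes, against 4957 without PBS replicate 2 and between 4263 and 4594 without any other 1 of the 6. Values are normalised read counts, given per library in the order of the replicate numbers, and a mean is followed by its SD (n = 3 per group throughout). A log2 change is PE minus PBS on log2(normalised count + 1), which understates the change of low genes, and is followed by its standard error. A gene is said to have risen or fallen only where limma gave a Benjamini-Hochberg adjusted p under 0.05.

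PE moved 5543 of 21799 genes (25.4%), 2742 up (12.6%) and 2801 down (12.8%). The count without a threshold on size covers mostly small changes: the median size of a called log2 change was 0.72. A log2 change of at least 1 was reached by 816 risen and 1022 fallen genes, one of at least 2 by 187 and 202, and one of at least 3 by 27 and 34. The 3 PE values lay entirely outside the 3 PBS values for 5469 of the called genes (98.7%), against 41.7% of all genes tested. Protein-coding genes were called at 31.7% (2484 up, 2525 down, of 15779), lincRNAs at 14.9% (60 up, 84 down, of 967), antisense genes at 9.95% of 1116 and processed pseudogenes at 4.37% of 1715.

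The balance of the response turned with expression level. Among genes with a mean of 1 to 10 normalised counts over all 12 libraries, 178 rose and 258 fell (6.46% called). Between 100 and 1000 the numbers were 1031 and 1292 (35.4%). Between 1000 and 10000 the order was the reverse, 988 up and 499 down (35.9%), and of 261 genes at 10000 or above, 99 rose and 12 fell (42.5%). The sum of normalised counts was 11.6% larger with PE, and 12 nuclear genes that gained most went from 4.22% to 7.63% of it. On the authors' scaling the median log2 change of genes with a mean of at least 50 was 0.01, and of these 12113 genes 36.1% were called. When every library was instead rescaled to the same total, that median was -0.15, and 1681 genes were called higher and 4289 lower (71.8% of calls). Small rises of whole groups depend on this choice, and the counts under equal totals are given below wherever they change the picture.

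**Figure D1:**
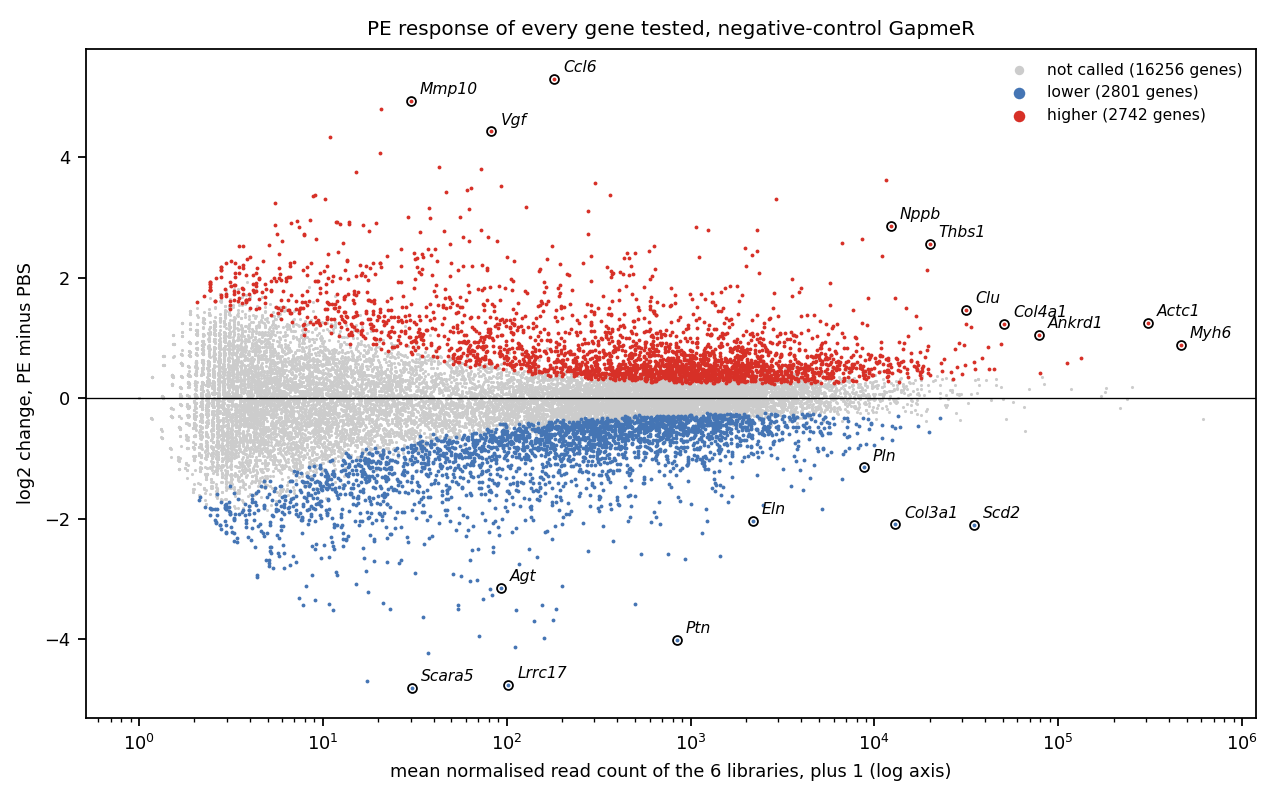
Log2 change with PE (y axis) against the mean normalised count of the 6 libraries plus 1 (x axis, log scale) for the 21799 genes tested, each point 1 gene, red where called higher (2742), blue where called lower (2801) and grey where not called. Among genes with a mean over all 12 libraries of at least 10000, 99 were called higher and 12 lower. The named genes are circled.

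Counted in normalised reads, not per length, the largest gain was in the alpha myosin heavy chain Myh6, the main adult isoform of the mouse ventricle. Its counts were 308655, 347003 and 313848 in PBS and 743362, 570009.9 and 500519.7 in PE. The PE libraries were all higher, but spread widely (log2 change 0.89 ± 0.21, adjusted p = 0.003). Cardiac alpha-actin, Actc1 (ENSMUSG00000068614.8, chromosome 2, 114047282 to 114053548, minus strand; gene positions are GENCODE M21 on GRCm38), had 179215, 178658 and 187030.4 in PBS and 416019, 441448 and 437390.3 in PE, with no overlap and little spread (log2 change 1.25 ± 0.17, adjusted p = 1.2e-05). Tropomyosin Tpm1 (102488 to 162382, log2 change 0.67), the sarcoplasmic reticulum calcium pump Atp2a2 (88977 to 133624, log2 change 0.59), the muscle intermediate filament desmin Des (34006 to 63113, log2 change 0.90) and the stretch-responsive ankyrin repeat protein Ankrd1 (51012 to 105630.0, log2 change 1.05) were among the next. So were smooth muscle actin Acta2 (20529 to 46552, log2 change 1.19), the basement membrane collagens Col4a1 (30283 to 71589, log2 change 1.24) and Col4a2 (18605 to 44017, log2 change 1.24), thrombospondin Thbs1 (5769 to 34277, log2 change 2.57), the chaperone clusterin, Clu (16786 to 46351, log2 change 1.47), and transglutaminase Tgm2 (7152 to 31409, log2 change 2.13). Col4a2 shares bases with the higher Col4a1 on the other strand, and any use of strand in counting is not given in the sources used here. Reads in the bases that such pairs share cannot be told apart, and how many they are is not known here.

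The largest loss was in Scd2, a stearoyl-CoA desaturase that makes monounsaturated fatty acids, with 58279, 51709 and 60271 in PBS and 12182, 13460.3 and 14145 in PE (log2 change -2.10 ± 0.12, adjusted p = 1.1e-10). Fibrillar collagen Col3a1 followed with 20256, 21827 and 20961 in PBS and 5469, 4702 and 4634 in PE (log2 change -2.09 ± 0.10, adjusted p = 1.5e-11). In both, the groups lay far apart. Next by size of loss were the acyl-CoA synthetase Acsl1 (23504 to 15944, log2 change -0.56), phospholamban Pln, the brake on the calcium pump (12041 to 5472, log2 change -1.14), and Scd1 (8121 to 2284, log2 change -1.83). The slow myosin heavy chain Myh7 (9501 to 3789.5, log2 change -1.33), the fetal slow troponin I Tnni1 (20039 to 14545, log2 change -0.46), the LIM protein Fhl2 (12561 to 7258, log2 change -0.78), HMG-CoA synthase Hmgcs1 (11391 to 6707, log2 change -0.76) and trans-enoyl-CoA reductase Tecr (10484 to 5870.4, log2 change -0.83) also belonged to the 12 largest losses.

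**Figure D2:**
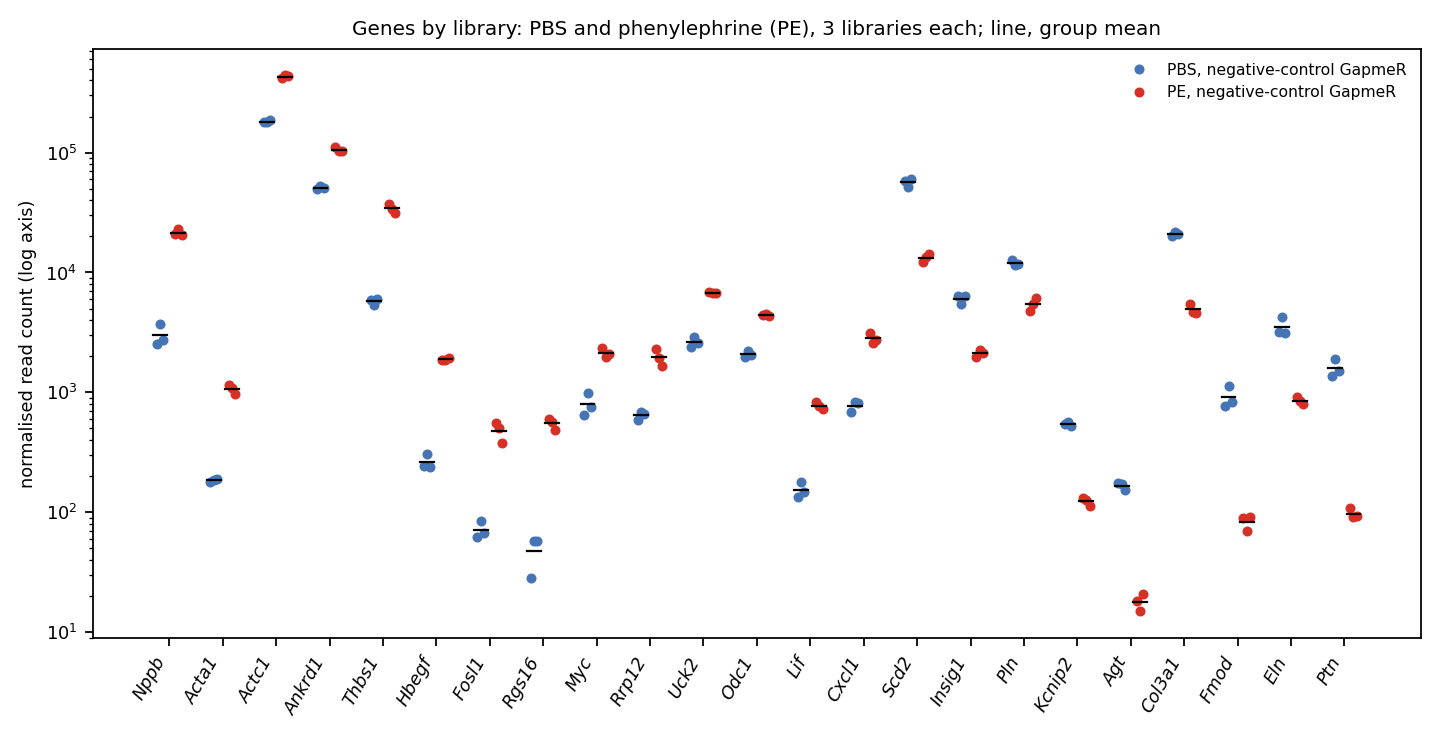
Normalised read counts (y axis, log scale) of named genes in the 3 PBS (blue) and 3 PE (red) libraries with the negative-control GapmeR, each point 1 library and each line a group mean. The genes from Nppb to Cxcl1 are higher in every PE library and those from Scd2 to Ptn lower.

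Alpha1 receptor transcripts were not called. Adra1b, an alpha1 receptor, was at 645 in PBS and 701 in PE (adjusted p = 0.42), and Adra1a at 1.92 and 3.21 (adjusted p = 0.55). Of 14 adrenergic receptor and receptor kinase genes 5 rose and 1 fell, which under equal totals became 2 and 2. The share called was 42.9%, against 36.1% of all genes with a mean of at least 50. Grk5, a kinase that phosphorylates agonist-occupied receptors, rose most, with 1486, 1421 and 1537 in PBS and 3217, 3115 and 3036 in PE (log2 change 1.08 ± 0.09, adjusted p = 5.1e-08), and no PBS library reached the lowest PE library. The beta1 receptor Adrb1 also rose (694 to 964, log2 change 0.48).

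Downstream of Gq, 4 of 29 phospholipase C, protein kinase C and related genes rose and 7 fell (1 and 12 under equal totals). The share called, 37.9%, was near the 36.1% of all genes with a mean of at least 50. The atypical kinase Prkcz (115 to 57.4), the conventional kinase Prkcb (186 to 112, log2 change -0.72), protein kinase D1, Prkd1 (203 to 126, log2 change -0.68), and the phospholipases Plce1 (1603 to 962, log2 change -0.74) and Plcg1 (1747 to 1146, log2 change -0.61) fell, while Prkch, a calcium-independent protein kinase C, rose (75.1 to 121, log2 change 0.69). RGS proteins speed the switching off of G proteins. Of 17 such genes 5 rose and 3 fell, with a median log2 change of 0.10, or -0.05 under equal totals. The share called was 47.1%, against the same 36.1%. Rgs16 had 28.5, 57.3 and 57.6 in PBS and 603, 569.6 and 486 in PE (log2 change 3.57 ± 0.21, adjusted p = 2e-10), so that its lowest PE library lay well above its highest PBS library, and Rgs2 (85.5 to 191, log2 change 1.16), which acts on Gq, and Rgs7 (10.3 to 28, log2 change 1.36) rose as well. Rgs4 (66.3 to 24.7, log2 change -1.44) and the pericyte marker Rgs5 (271 to 79.2, log2 change -1.76) fell.

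Genes that restrain ERK and receptor tyrosine kinases rose as a group: 14 of 20 were higher and 1 lower (13 and 1 under equal totals), with a median log2 change of 0.70. Errfi1, which binds and inhibits the EGF receptor, had 306, 288 and 343 in PBS and 2080.2, 2069 and 2357 in PE (log2 change 2.79 ± 0.11, adjusted p = 2.2e-12), a gap with no intermediate library. The phosphatases Dusp8 (318 to 888, log2 change 1.48), Dusp9 (69.6 to 159, log2 change 1.19) and Dusp2 (12.2 to 27.2, log2 change 1.10) and the Ras-ERK inhibitors Spry4 (693 to 1665, log2 change 1.27) and Spred3 (138 to 294, log2 change 1.09) followed.

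The AP-1 proteins are leucine-zipper factors that form dimers of a Fos and a Jun. Of 15 genes 10 rose and 0 fell, on the authors' scaling and under equal totals (10 and 0), with a median log2 change of 0.93. Fosl1 had 62.6, 84.9 and 67 in PBS and 556, 504 and 379 in PE (log2 change 2.72 ± 0.20, adjusted p = 4.7e-09) and lies opposite the higher Ccdc85b. Fos had 83.5, 101 and 115 in PBS and 379, 368 and 299.6 in PE (log2 change 1.80 ± 0.15, adjusted p = 3.7e-08). Both were higher in every PE library 24 hours after the agonist was added. Fosb (23.8 to 72.4, log2 change 1.65), Fosl2 (1241 to 3072, log2 change 1.31), Jun (769.6 to 1713, log2 change 1.14) and Junb (886 to 2235, log2 change 1.34, overlapping the higher Prdx2) rose too. Among EGR, NR4A, KLF and other early factors, 18 of 23 rose and 1 fell (16 and 2 under equal totals). The orphan receptor Nr4a3 had the largest log2 change of these (32.5 to 165, log2 change 2.35). The growth regulator Myc had 653, 981 and 748 in PBS and 2351, 1971 and 2077 in PE (log2 change 1.44 ± 0.15, adjusted p = 4.4e-07). Csrnp1 (267 to 766, log2 change 1.52) and Klf9 (337 to 923, log2 change 1.45) rose, and Klf15, a repressor of cardiac growth, fell (235 to 87.5, log2 change -1.42).

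SRF and its cofactors of the MRTF family bind the CArG box and drive actin and contractile genes. Of 27 cytoskeletal targets 22 rose and 1 fell (18 and 2 under equal totals), with a median log2 change of 0.70 against 0.01 for all genes with a mean of at least 50. Skeletal alpha-actin, Acta1 (ENSMUSG00000031972.6, chromosome 8, 123891769 to 123894751, minus strand), had 177, 185 and 191 in PBS and 1153, 1088 and 975 in PE, 2 tight groups far apart (log2 change 2.53 ± 0.11, adjusted p = 4.7e-12). Calponin Cnn1 (144 to 726, log2 change 2.32), the regulatory myosin light chain Myl9 (9505 to 24289, log2 change 1.36), Acta2 and Pdlim7 (2545 to 5416, log2 change 1.09) rose with it. Fhl2 was the member that fell. Summed smooth muscle and pericyte markers, which include Acta2, Cnn1 and Des, went from between 59596 and 77665 per PBS library to between 114553 and 131886 per PE library, although of those 11 markers 5 rose and 5 fell (4 and 6 under equal totals), Myh11 (496 to 172, log2 change -1.52) and Abcc9 (5132 to 1863, log2 change -1.46) among the fallen. The part of such cells in the SRF group was not tested. Myocd, a coactivator of SRF, rose (1857 to 3569, log2 change 0.94).

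The sequences before the RefSeq starts of the actin genes show where the CArG box lies. They are RefSeq windows on GRCm38.p6, 150 bases ending just before the start, read 5′ to 3′ on the gene's strand, in lower case with the CArG box in capitals, for Acta1 at chr8:123894776-123894925, minus strand, and Actc1 at chr2:114052876-114053025, minus strand. The box begins 73 bases before the RefSeq start in Acta1 and 47 in Actc1. These starts differ from the ends of the GENCODE positions given above. The Actc1 window lies inside the GENCODE gene, and the Acta1 window lies wholly before it.
Acta1: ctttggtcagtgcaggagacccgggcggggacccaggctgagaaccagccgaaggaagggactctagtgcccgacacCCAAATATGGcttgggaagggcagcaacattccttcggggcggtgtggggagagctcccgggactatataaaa
Actc1: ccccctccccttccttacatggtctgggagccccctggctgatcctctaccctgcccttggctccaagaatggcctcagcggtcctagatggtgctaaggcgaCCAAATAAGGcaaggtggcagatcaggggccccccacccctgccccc
Over windows from 250 bases before to 50 bases after a start, 1.34% of 17129 windows of tested genes held a CArG box, against 35.7% of the 28 windows of the SRF list, whose genes are known for it, 2.33% of windows of risen genes and 1.13% of fallen genes. Of 229 windows with the box, 25.8% belonged to a risen and 13.1% to a fallen gene, and over all windows of tested genes these shares were 14.8% and 15.5%.

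Genes known to follow YAP and its DNA-binding partners of the TEAD family were mostly higher, 11 of 20 up and 2 down (9 and 3 under equal totals). The secreted matrix proteins Ccn2 (3674, 3453 and 3585 in PBS and 18588, 18878 and 17421 in PE, log2 change 2.36 ± 0.09, adjusted p = 1.6e-12) and Ccn1 (4404 to 14015, log2 change 1.67) were higher in every PE library. Coagulation factor F3 (204 to 536, log2 change 1.39), the kinase Nuak2 (103 to 262, log2 change 1.34) and the receptor tyrosine kinase Axl (7443 to 14254, log2 change 0.94) rose too, and Tead2 fell (1609 to 1088, log2 change -0.56). Natriuretic peptide genes are the usual readout of this stimulus. Nppb (ENSMUSG00000029019.9, chromosome 4, 147985788 to 147987205, plus strand) had 2544, 3721 and 2709 in PBS and 21093, 22931 and 20555 in PE (log2 change 2.87 ± 0.13, adjusted p = 7.6e-12), so the groups lay far apart, while Nppa rose less, with 14572, 15039 and 15326 in PBS and 21319.8, 23636 and 19331 in PE (log2 change 0.51 ± 0.11, adjusted p = 0.0014). The proprotein convertase Furin rose (2706 to 5107, log2 change 0.92), and the natriuretic peptide convertase Corin (1916 to 758, log2 change -1.34) and the degrading peptidase Mme (163 to 83.2, log2 change -0.98) fell.

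Myosin genes split, with 7 of 20 higher and 6 lower (6 and 7 under equal totals). Non-muscle Myh9 (9893 to 20405, log2 change 1.03) and the light chains Myl9 and Myl1 (987 to 2620.0, log2 change 1.41) rose, and Myh7 fell from 8664, 10006 and 9833 in PBS to 4384, 3674 and 3311 in PE, without overlap (log2 change -1.33 ± 0.12, adjusted p = 8e-08). Mylk4 (490.3 to 137, log2 change -1.83), a myosin light chain kinase, smooth muscle Myh11 and Myh7b (556 to 264, log2 change -1.09, overlapping the higher Trpc4ap) fell too. Mhrt, a noncoding RNA from the Myh7 locus on the other strand, was called higher (66.8 to 252, log2 change 1.93), but it shares bases with the far higher Myh7. In the thin filament and Z-disc 11 of 29 genes rose and 3 fell (9 and 4 under equal totals). The share called was 48.3%, against 36.1% of all genes with a mean of at least 50. The fast skeletal troponin Tnnt3 had 23.7, 40.9 and 13.2 in PBS and 176, 129.6 and 143 in PE (log2 change 2.61 ± 0.29, adjusted p = 1.3e-06), a clean separation at low counts. The alpha-actinin Actn1 (6156 to 19649.6, log2 change 1.67), Xirp2 (243 to 762, log2 change 1.65), the calcineurin-binding Myoz2 (2241 to 4809.9, log2 change 1.11) and the LIM protein Csrp3 (4271 to 9116, log2 change 1.09) rose as well. Intermediate filament genes rose in 8 of 14 cases and fell in 2, the rises led by the keratin Krt18 (484, 596 and 523 in PBS and 6283, 5085 and 4593 in PE, log2 change 3.31 ± 0.12, adjusted p = 7.8e-13), synemin Synm (220.4 to 738, log2 change 1.74) and nestin Nes (1669 to 4338, log2 change 1.37). Among tubulins, which have near-identical members that may share reads, Tuba8 (56.6 to 193, log2 change 1.79) and Tubb6 (3032 to 6077, log2 change 1.00) rose and Tubb4a fell (156 to 66.4, log2 change -1.21).

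Ribosome assembly factors, the nucleolar proteins that process ribosomal RNA, had the largest share of members called in the same direction among the lists in the plot of called shares. All but 1 of 43 tested members rose and 0 fell (40 and 0 under equal totals), with a median log2 change of 0.83. Rrp12 had 590.2, 690.2 and 654 in PBS and 2301, 1928 and 1674 in PE (log2 change 1.60 ± 0.11, adjusted p = 2.3e-09). The small nucleolar ribonucleoprotein Nhp2 had 630.0, 622 and 587 in PBS and 1664, 1509 and 1381 in PE (log2 change 1.30 ± 0.12, adjusted p = 1.6e-07), and Mybbp1a, a nucleolar regulator of ribosomal RNA, 3123, 3311 and 3246 in PBS and 8219, 7549 and 7072 in PE (log2 change 1.24 ± 0.09, adjusted p = 5.2e-09). In each the lowest PE library exceeded the highest PBS library. Rrs1 (591 to 1349.6, log2 change 1.17) and Grwd1 (370.2 to 829, log2 change 1.16) rose by like amounts, as did Rrp9 (354 to 759, log2 change 1.10), which overlaps the higher Parp3. An E-box CACGTG was found in 25.0% of the 40 windows of these genes and in 9.01% of the windows of tested genes. It was also in 22.2% of the 27 windows of the sterol synthesis list, in which 0 genes rose. Over all risen genes the share was 10.4%, and over all fallen genes 7.62%. For genes risen by a log2 change of at least 2 it was 4.26%, and for those fallen by as much 5.52%.

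RNA polymerase I and III genes rose in 12 of 28 cases and fell in 2 (6 and 2 under equal totals), with Polr1a (2177 to 3683, log2 change 0.76), Polr1d (1075 to 1807, log2 change 0.75) and Polr1b (451 to 733, log2 change 0.70), all of polymerase I, among the largest, and Maf1, the repressor of polymerase III, was lower (1561 to 1097, log2 change -0.51). Of 47 translation factors 25 rose and 1 fell. These rises were small and rested more on scaling, 13 and 3 under equal totals. Eef1e1 (236 to 511, log2 change 1.12) and the anti-association factor Eif6 (1429 to 2432, log2 change 0.77) rose most. Cytosolic tRNA synthetases rose in 9 of 22 cases and fell in 0 (4 under equal totals), Kars (2715 to 3942, log2 change 0.54) and Rars (2046 to 2965, log2 change 0.54) by most. Their share called was 40.9%, against 36.1% of all genes with a mean of at least 50 (18.9% risen).

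Nucleotide and one-carbon synthesis moved mostly up, with 19 of 30 genes higher and 3 lower, which became 7 and 5 under equal totals. The uridine-cytidine kinase Uck2 had 2392, 2893 and 2588 in PBS and 6879, 6740.2 and 6789.7 in PE (log2 change 1.38 ± 0.09, adjusted p = 1.3e-09), far outside the spread of either group. Cad, the first enzyme of pyrimidine synthesis (1206 to 2084, log2 change 0.79), and CTP synthase Ctps (2173 to 3578, log2 change 0.72) rose, and the isozymes Prps2 (1425 to 701, log2 change -1.03) and Ctps2 (681 to 434, log2 change -0.65) fell. In polyamine synthesis 6 of 12 genes rose and 1 fell, among the risen the rate-limiting Odc1, with 1974, 2205 and 2059.5 in PBS and 4402, 4536 and 4315 in PE (log2 change 1.09 ± 0.10, adjusted p = 1.3e-07), and spermidine synthase Srm (1259.9 to 2745, log2 change 1.12), while the antizyme Oaz2 fell (2487 to 1642, log2 change -0.60). Amino acid transporters were split, 8 up and 4 down of 22, and the sign of their median turned with scaling (0.12, and -0.04 under equal totals). Slc38a3 had the largest rise (55.4 to 244, log2 change 2.15), and Slc38a2 (10366 to 18319, log2 change 0.83) and Slc6a6 (10019 to 18929, log2 change 0.92) rose by less, and Slc7a3 fell (194 to 77.7, log2 change -1.31).

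Sterol synthesis ran the other way. Of 27 genes of the pathway and its SREBP regulators, 0 rose and 19 fell (22 under equal totals), with a median log2 change of -0.63. Insig1, which retains SREBP in the endoplasmic reticulum and is itself an SREBP target, had 6307, 5498 and 6376 in PBS and 1985, 2247 and 2119 in PE (log2 change -1.52 ± 0.10, adjusted p = 1.1e-09), with the groups far apart. Dhcr7, of the last steps, had 2193, 2669.9 and 2343 in PBS and 935, 994 and 990.0 in PE (log2 change -1.30 ± 0.12, adjusted p = 1.3e-07). Mevalonate pathway enzymes Mvd (1595 to 769.8, log2 change -1.05) and Pmvk (986 to 491, log2 change -1.01), Nsdhl (2989.9 to 1613, log2 change -0.89) and Tm7sf2 (357 to 156, log2 change -1.22, overlapping the higher Vps51 on the same strand) fell too. The letters TCACNCCAC, a form of the sterol regulatory element, were looked for on both strands and found in 1.22% of windows of tested genes and in 1 of the 27 windows of the sterol list. That window belongs to Hmgcs1 (ENSMUSG00000093930.3, chromosome 13, 119690379 to 119708260, plus strand), whose 150 bases before the RefSeq start, on GRCm38.p6 at chr13:119690201-119690350, plus strand, are shown with the element in capitals, 137 bases before the start.
Hmgcs1: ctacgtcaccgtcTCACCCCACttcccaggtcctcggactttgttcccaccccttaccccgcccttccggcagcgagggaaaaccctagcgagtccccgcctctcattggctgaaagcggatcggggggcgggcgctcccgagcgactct
Fatty acid synthesis and storage genes fell in 10 of 25 cases and rose in 3. Besides Scd2 and Scd1, the desaturases Fads2 (4805 to 2455, log2 change -0.96) and Fads1 (4612 to 2769, log2 change -0.74) and the phosphatidate phosphatase Lpin1 (2875 to 1506, log2 change -0.93) fell, while the lipid droplet coat Plin4 rose (1092 to 2042, log2 change 0.90).

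In fatty acid oxidation and its regulators 5 of 33 genes rose and 7 fell, 36.4% of them, as against 36.1% of all genes with a mean of at least 50. Their median log2 change was 0.06, or -0.10 under equal totals. Acadm, the medium-chain dehydrogenase (6211 to 3511, log2 change -0.82), and the receptor Ppara (312 to 172, log2 change -0.81) fell, and Pparg (26 to 94.6, log2 change 1.88), the uncoupling protein Ucp2 (1528 to 3804, log2 change 1.32) and the pyruvate dehydrogenase kinase Pdk4 (1978 to 4145, log2 change 1.07) rose. Among 31 glucose genes 9 rose and 8 fell (7 and 9 under equal totals), with the lactate exporter Slc16a3 (314 to 795, log2 change 1.33) and hexokinase Hk2 (2362 to 4909.5, log2 change 1.05) higher, and Aldoc (734 to 179, log2 change -2.03) and Pdk2 (4849 to 2703, log2 change -0.84) lower. Transcripts of FoxO targets, atrophy and autophagy fell in 16 of 29 cases and rose in 4 (20 and 3 under equal totals). Pik3ip1, an inhibitor of PI3-kinase, had 608, 596 and 609.7 in PBS and 189, 196 and 195 in PE (log2 change -1.64 ± 0.11, adjusted p = 9.1e-10), with every PE library below every PBS library. Ccng2 (501 to 136, log2 change -1.87) and the sestrins Sesn1 (942 to 404, log2 change -1.21) and Sesn3 (1088 to 561, log2 change -0.95) were also lower, and Irs2, an insulin receptor substrate, was higher (744 to 1426, log2 change 0.94).

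Potassium channel transcripts fell more often than they rose. Of 34 potassium channel genes 15 fell and 4 rose (19 and 2 under equal totals). Kcnip2, the subunit of the transient outward current, had 548, 566 and 519 in PBS and 133, 128 and 113 in PE (log2 change -2.12 ± 0.13, adjusted p = 2.9e-10), and its partner Kcnd2 went from 153 to 61.6 (log2 change -1.31 ± 0.19, adjusted p = 3.9e-05). Both were lower in every PE library. Kcnj3, of the acetylcholine-gated current, fell (2017 to 697, log2 change -1.53), as did the calcium-activated Kcnma1 (15.4 to 2.15, log2 change -2.65), Kcnn1 (187 to 59.8, log2 change -1.65) and Kcnn3 (74 to 22.9, log2 change -1.63) and the accessory Kcne4 (181 to 52, log2 change -1.78). Of 14 sodium, T-type calcium and pacemaker genes 3 rose and 5 fell, with log2 changes over the list from -3.49 to 2.28. The share called was 57.1%, against 36.1% of all genes with a mean of at least 50. The auxiliary calcium channel subunit Cacng6 had 336, 352 and 333 in PBS and 30.2, 26.6 and 31.5 in PE (log2 change -3.49 ± 0.24, adjusted p = 2.5e-09), far apart, and the pacemaker channel Hcn4 fell (966 to 583, log2 change -0.73).

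Calcium handling genes split 9 up and 8 down of 25, which became 6 and 11 under equal totals. Atp2a2 rose, with 92092, 79879 and 94961 in PBS and 132889.5, 135859 and 132123 in PE (log2 change 0.59 ± 0.14, adjusted p = 0.0039), and its inhibitors fell: phospholamban Pln had 12678, 11617 and 11827 in PBS and 4788, 5468 and 6158 in PE (log2 change -1.14 ± 0.19, adjusted p = 0.00013) and sarcolipin Sln fell too (1626 to 751, log2 change -1.13). None of the 3 had overlapping groups. Calsequestrin Casq1 (461 to 1524, log2 change 1.73) and junctophilin Jph2 (9151 to 14661, log2 change 0.67) rose, and the ryanodine receptor partner Fkbp1b (119 to 46.3, log2 change -1.36) and Hrc (1425 to 809.9, log2 change -0.81) fell. Phosphodiesterases fell in 5 of 17 cases and rose in 2, with Pde1a lowest (486 to 154, log2 change -1.64), and the cAMP-degrading Pde4b (783 to 2225, log2 change 1.51) and Pde4d (301 to 548, log2 change 0.87) rose. In the calcineurin list 5 of 22 genes rose and 4 fell (2 and 7 under equal totals). The shares called, 41.2% of phosphodiesterases and 40.9% of the calcineurin list, stood against 36.1% of all genes with a mean of at least 50. Rcan1, a calcineurin-induced inhibitor, had 1576, 1718 and 1564 in PBS and 2847, 3146 and 3325 in PE (log2 change 0.94 ± 0.10, adjusted p = 4.4e-07), above PBS in each PE library, while the class IIa deacetylase Hdac9 (748 to 242, log2 change -1.62) and Nfatc4 (373 to 171, log2 change -1.11) fell. Of 23 cardiac transcription factors 3 rose and 3 fell, 26.1% against 25.4% of all genes tested and 36.1% of those with a mean of at least 50. Irx4, a ventricular homeobox factor, was among the fallen (1650.1 to 732, log2 change -1.18).

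**Figure D3:**
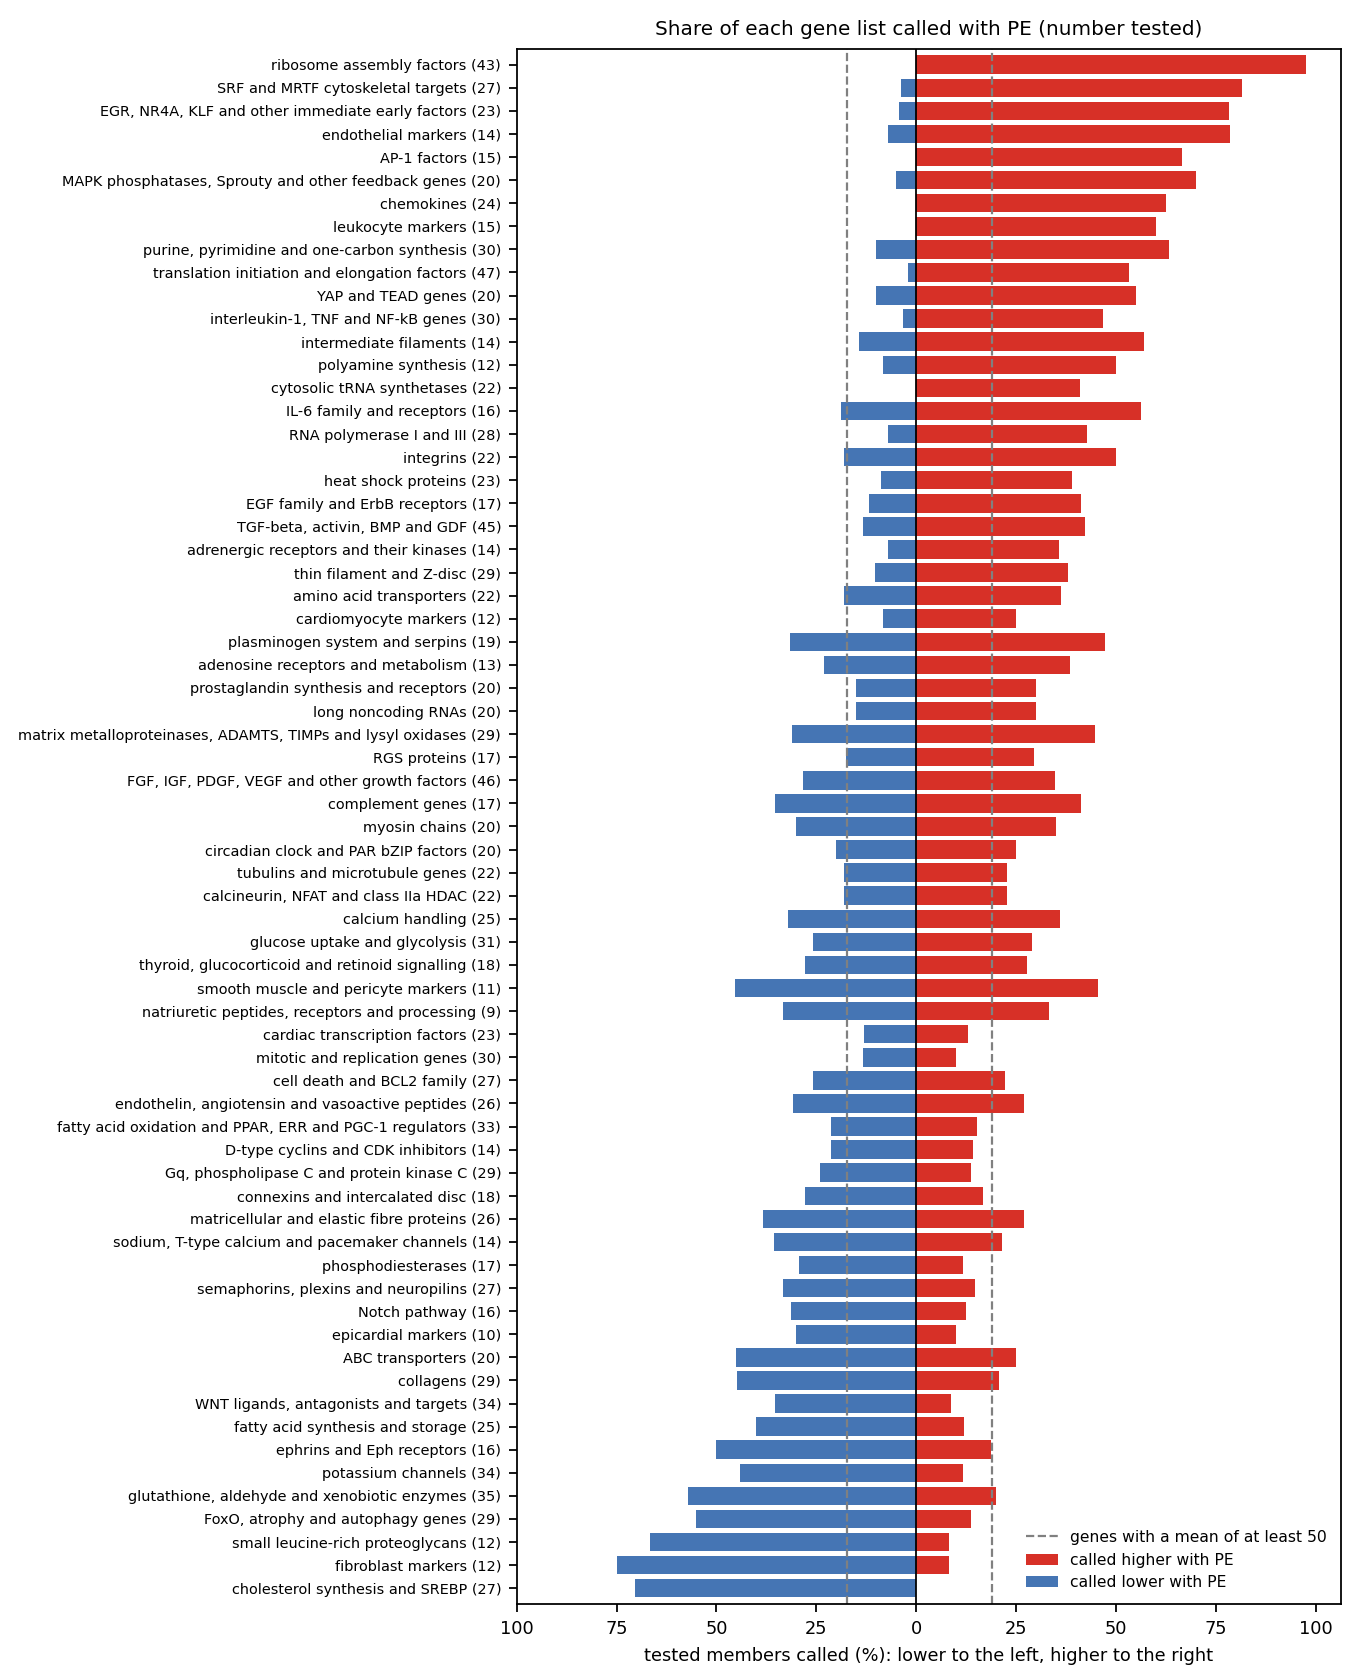
Share of the tested genes of each list that was called higher (red, to the right) or lower (blue, to the left) with PE, in percent, with the number tested in brackets and lists ordered by the difference. Dashed lines mark the same shares over the 12113 genes with a mean of at least 50 (18.9% higher, 17.2% lower), and ribosome assembly factors and sterol synthesis stand at opposite ends.

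Secreted signals rose in several families. The EGF ligands Hbegf (245, 304 and 239.7 in PBS and 1849.6, 1867 and 1939.8 in PE, log2 change 2.85 ± 0.12, adjusted p = 4.4e-12), Areg (4.31 to 20.8, log2 change 2.29) and Ereg (289 to 932, log2 change 1.69) bind ErbB receptors, and all 3 were higher, whereas Egf (96 to 48.7, log2 change -0.99) and the receptor Erbb4 (995 to 599.7, log2 change -0.73) were lower (7 up and 2 down of 17). In the IL-6 family and its receptors 9 of 16 genes rose and 3 fell. Lif had 134, 178 and 148 in PBS and 826, 771 and 724 in PE (log2 change 2.34 ± 0.13, adjusted p = 1.1e-10) and Il6 9.49, 11.2 and 6.61 in PBS and 48.5, 52.1 and 54.3 in PE (log2 change 2.40 ± 0.43, adjusted p = 0.0003), and Clcf1 rose too (97.1 to 271, log2 change 1.47). The groups did not overlap for any of these 3 ligands, and the receptor Lifr fell (929 to 599, log2 change -0.63).

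Of 24 chemokines 15 rose and 0 fell (14 under equal totals). Ccl6 had 5.69, 11.2 and 7.55 in PBS and 298, 351 and 407 in PE (log2 change 5.30 ± 0.34, adjusted p = 8.9e-10). The neutrophil attractant Cxcl1 had 684, 826 and 812 in PBS and 3141, 2597 and 2725 in PE (log2 change 1.86 ± 0.11, adjusted p = 4.5e-10). Ccl9 (141 to 760.0, log2 change 2.42), Cxcl3 (154 to 671, log2 change 2.10) and Cxcl5 (899 to 2921, log2 change 1.71) rose with them. No PBS library reached the PE range for Ccl6 or Cxcl1. In the interleukin-1, TNF and NF-kB list 14 of 30 genes rose and 1 fell, among the risen Il1b (7.46 to 84.6, log2 change 3.43), Il1a (54.5 to 273, log2 change 2.31), the neutrophil growth factor Csf3 (11.7 to 110.3, log2 change 3.14) and the TWEAK receptor Tnfrsf12a (1674 to 5432, log2 change 1.70). Leukocyte markers rose too, 9 of 15 and 0 down, with summed levels of 2771 to 3424 in PBS and 3850 to 4435 in PE. The C1q chains C1qc (6.75 to 67.1, log2 change 3.15), C1qb (15 to 98.6, log2 change 2.68) and C1qa (7.4 to 43.8, log2 change 2.48) and Fcgr1 (5.47 to 50.9, log2 change 3.01) led them, and the pan-leukocyte Ptprc (66.6 and 67.8) and Csf1r (322 and 351, overlapping the higher Hmgxb3) were not called. In bulk RNA, more or fewer cells of a type and more or less RNA per cell cannot be told apart, and the part of leukocytes in the cytokine results was not tested.

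The promoters of Cxcl1 and Cxcl2 hold an NF-kB motif close before the start. Both are RefSeq windows of 150 bases before the start on GRCm38.p6, Cxcl1 at chr5:90891095-90891244, plus strand, and Cxcl2 at chr5:90903749-90903898, plus strand, with the bases that match the motif on either strand in capitals. The overlapping matches begin 71 and 70 bases before the start in Cxcl1 and 97 and 96 in Cxcl2, which rose to 419 from 151 (log2 change 1.44 ± 0.16, adjusted p = 1.4e-06).
Cxcl1: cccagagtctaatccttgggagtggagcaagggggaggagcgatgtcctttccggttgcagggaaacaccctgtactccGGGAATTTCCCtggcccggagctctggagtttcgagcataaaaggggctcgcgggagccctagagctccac
Cxcl2: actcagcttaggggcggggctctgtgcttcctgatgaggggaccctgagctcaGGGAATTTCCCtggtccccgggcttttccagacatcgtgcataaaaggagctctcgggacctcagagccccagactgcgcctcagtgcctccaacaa
The motif was in 30.4% of the 23 windows of the chemokine list and in 5.30% of windows of tested genes. Among genes risen by a log2 change of at least 2 it was in 6.38% of 141 windows. Among those fallen by as much it was in 8.59% of 163. Over all risen and all fallen genes the shares were 6.72% and 5.36%, and in the sterol list 14.8% of 27 windows.

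TGF-beta, activin and BMP genes were called in both directions (19 up and 6 down of 45), and under equal totals the balance changed to 15 and 13. The activin subunit Inhba had 675, 579 and 544 in PBS and 3308, 3208 and 3576 in PE (log2 change 2.49 ± 0.11, adjusted p = 7.6e-12) and the BMP antagonist Grem1 28.5, 19.4 and 25.5 in PBS and 203, 238 and 244 in PE (log2 change 3.18 ± 0.20, adjusted p = 9.4e-10). Both separated the groups. The latent TGF-beta binding protein Ltbp2 (184 to 1007, log2 change 2.45) and Bmp2 (179 to 741, log2 change 2.05) rose, and Gdf10 (284 to 25.4, log2 change -3.44) and Bmp3 (24.1 to 5.36, log2 change -2.10) fell. WNT genes fell more often than they rose, 12 down and 3 up of 34. The share called was 44.1%, against 36.1% of all genes with a mean of at least 50. Wnt4 (118 to 20.7, log2 change -2.50), Ccn5 (30.8 to 5.38, log2 change -2.33), Rspo1 (146 to 31.9, log2 change -2.13) and the antagonist Sfrp2 (1036 to 316, log2 change -1.71) fell. Wnt5b rose (81.5 to 343, log2 change 2.07). In the Notch pathway the target Hes1 rose (360.1 to 938, log2 change 1.38) while Hey2 (643 to 231, log2 change -1.47), Heyl (121 to 36.9, log2 change -1.69) and Dlk1 (1966 to 477, log2 change -2.04) fell. Growth factors divided 16 up and 13 down of 46 (14 and 15 under equal totals). Pdgfb (137 to 595, log2 change 2.12) and Angptl4 (713 to 3289, log2 change 2.20) rose, and pleiotrophin, Ptn, fell (1361, 1886 and 1514 in PBS and 109, 90.3 and 92.3 in PE, log2 change -4.01 ± 0.16, adjusted p = 1.6e-12), as did Angpt1 (418 to 99.8, log2 change -2.07).

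Among vasoactive genes, the angiotensin members named here fell, and an endothelin and a kinin receptor gene rose. Angiotensinogen, Agt, had 174, 171 and 152 in PBS and 18.3, 14.9 and 20.6 in PE (log2 change -3.14 ± 0.34, adjusted p = 9.1e-07), with every PE library far below PBS. Its type 1 receptor Agtr1a fell (572 to 159.9, log2 change -1.83). For the type 2 receptor Agtr2, 58 reads in PBS stood against 3 in PE, a ratio of 0.0573 with an exact 95% interval of 0.0115 to 0.176 that covers counting error only. Endothelin Edn1 had 284, 348 and 255 in PBS and 826, 877 and 993 in PE (log2 change 1.61 ± 0.12, adjusted p = 7.2e-09), and the bradykinin receptor Bdkrb2 44.6, 51.1 and 58.5 in PBS and 306, 312 and 279 in PE (log2 change 2.52 ± 0.16, adjusted p = 6.9e-10). Both were higher in all 3 PE libraries. Over the whole list 7 of 26 vasoactive peptide genes rose and 8 fell. In prostaglandin synthesis the inducible cyclooxygenase Ptgs2 had 63.6, 66.5 and 58.5 in PBS and 618, 632 and 739 in PE (log2 change 3.38 ± 0.13, adjusted p = 9.9e-13), with the prostacyclin receptor Ptgir lower (384 to 165, log2 change -1.22).

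Mmp10, Serpinb2 and Mmp13, all proteases or their inhibitors, were among the 15 largest rises. The urokinase receptor Plaur had 213, 263 and 227 in PBS and 1145, 999.9 and 990.0 in PE (log2 change 2.15 ± 0.12, adjusted p = 1.5e-10), and thrombomodulin Thbd (157 to 843, log2 change 2.42), Serpinb2 (14 to 170.2, log2 change 3.53) and Tfpi2 (118 to 451, log2 change 1.94) rose too. Serpina3n fell (487 to 150.0, log2 change -1.68). Of 29 metalloproteinase, ADAMTS, TIMP and lysyl oxidase genes 13 rose and 9 fell. Mmp10, a stromelysin, had 3 reads in PBS and 159 in PE, a ratio of 58.7 (exact 95% interval 19.7 to 288, counting error only), and the collagenase Mmp13 had 7.59, 10.2 and 10.4 in PBS and 117, 97.8 and 132 in PE (log2 change 3.49 ± 0.28, adjusted p = 1.8e-08). Mmp8 (58.3 to 198, log2 change 1.75), Adamts8 (92.2 to 479, log2 change 2.37) and Timp1 (663 to 1988, log2 change 1.59) were also higher, and Mmp19 (166 to 49.5, log2 change -1.75, overlapping the higher Tmem198b) lower, as was the gelatinase Mmp2 (6425 to 2999, log2 change -1.10).

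The letters TGANTCA on either strand (N is any base), a form of the AP-1 site, lie close before the start of 3 of these protease genes and of the receptor gene Plaur. Windows of 150 bases before the start on GRCm38.p6 are shown for Mmp13 (chr9:7272364-7272513, plus strand), Mmp10 (chr9:7502192-7502341, plus strand), Mmp3 (chr9:7445672-7445821, plus strand) and Plaur (chr7:24462333-24462482, plus strand), with the site in capitals. It begins 35, 63, 46 and 69 bases before the start, in that order. The 3 metalloproteinase genes neighbour each other on chromosome 9, and Mmp3 rose by less than the other 2 (591 to 1064, log2 change 0.86).
Mmp13: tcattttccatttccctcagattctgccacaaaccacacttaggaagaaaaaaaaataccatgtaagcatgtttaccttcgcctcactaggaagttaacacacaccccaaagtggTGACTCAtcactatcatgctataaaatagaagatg
Mmp10: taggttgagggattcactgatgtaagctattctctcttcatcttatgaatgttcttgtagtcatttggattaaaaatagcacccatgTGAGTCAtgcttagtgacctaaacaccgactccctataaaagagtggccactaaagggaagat
Mmp3: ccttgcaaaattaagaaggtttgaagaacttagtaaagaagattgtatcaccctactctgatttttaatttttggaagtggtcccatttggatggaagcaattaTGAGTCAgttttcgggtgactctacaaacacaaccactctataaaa
Plaur: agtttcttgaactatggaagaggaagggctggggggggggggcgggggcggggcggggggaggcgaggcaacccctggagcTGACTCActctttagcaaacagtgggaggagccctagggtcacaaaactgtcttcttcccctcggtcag
Among genes risen by a log2 change of at least 2, 16.3% of 141 windows held the letters TGANTCA, and among those fallen by as much 9.82% of 163. The share was 6.02% of windows of tested genes, 7.47% of those of all risen genes and 7.81% of all 32851 windows. TEAD letters, GGAATG on either strand, were in 27 of the 141 windows of genes risen by a log2 change of at least 2 and in 31 of the 163 of genes fallen by as much, and in 12.9% of windows of tested genes.

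Many matrix genes fell. Of 29 collagens 13 were lower and 6 higher. Col6a3 (2526 to 821, log2 change -1.62) and Col15a1 (1105 to 259.8, log2 change -2.09) fell with Col3a1, and Col12a1 rose with the Col4 pair (3209.9 to 6544, log2 change 1.03). Small leucine-rich proteoglycans, which coat collagen fibrils, fell in 8 of 12 cases and rose in 1. Fibromodulin, Fmod, had 771, 1126 and 832 in PBS and 89.4, 70.1 and 91.2 in PE (log2 change -3.42 ± 0.17, adjusted p = 2.8e-11) and lumican, Lum, 1792, 1409 and 1615 in PBS and 246, 252 and 257 in PE (log2 change -2.66 ± 0.13, adjusted p = 1.6e-11), each with groups several-fold apart. Aspn (206 to 17.2, log2 change -3.51) and Prelp (1901 to 400.3, log2 change -2.23) fell as well. Elastin, Eln, had 3207, 4216 and 3102 in PBS and 907, 844 and 799 in PE (log2 change -2.03 ± 0.13, adjusted p = 8.9e-10), and the elastic fibre protein Mfap4 (121 to 29.1, log2 change -2.02, overlapping the higher Mapk7) fell.

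Of 26 matricellular and elastic fibre genes 10 fell and 7 rose, with a median log2 change of 0.09, or -0.07 under equal totals. Thrombospondin Thbs1 had 5939, 5367 and 6001 in PBS and 37099, 34140.1 and 31591 in PE (log2 change 2.57 ± 0.10, adjusted p = 2.2e-12) and tenascin Tnc 1966, 1851 and 1904 in PBS and 12553, 10934 and 10868 in PE (log2 change 2.58 ± 0.10, adjusted p = 9.9e-13). These 2 were higher in every PE library and Thbs2 went the other way (2213 to 730.1, log2 change -1.60). Integrin genes rose in 11 of 22 cases and fell in 4. Itga9 rose most (599.7 to 2015, log2 change 1.75), and Itga8 fell (791 to 321, log2 change -1.30). Fibroblast markers fell alongside, 9 of 12 with 1 higher (Thy1, 553 to 1109.6, log2 change 1.03), their sum from 73866 to 80041 per PBS library to 43443 to 47652 per PE library. Several matrix genes above are themselves on that marker list, Postn (8989 in PBS and 9505 in PE) was not called, and the part of fibroblast number was not tested.

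**Figure D4:**
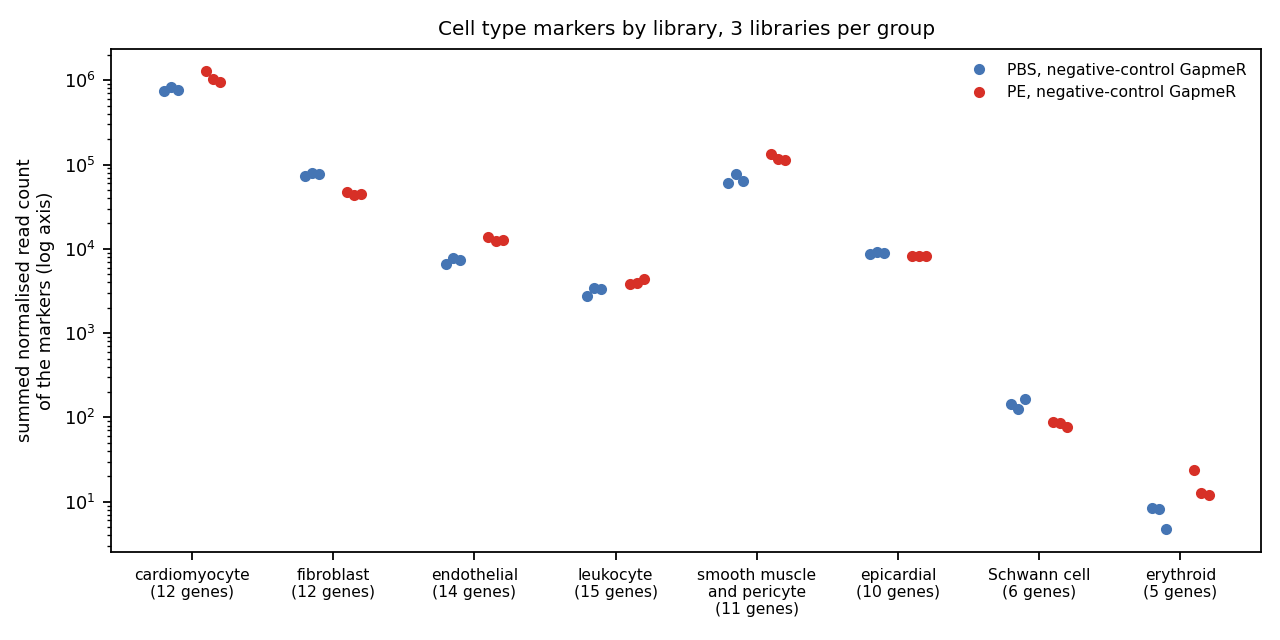
Summed normalised counts (y axis, log scale) of the marker genes of 8 cell types in the 3 PBS (blue) and 3 PE (red) libraries, each point 1 library. Fibroblast sums are lower in every PE library and endothelial, smooth muscle, leukocyte and cardiomyocyte sums higher, the cardiomyocyte sums mostly through Myh6.

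Cardiomyocyte markers were the highest of the marker lists, between 751245 and 839871 in PBS and between 946719 and 1271623 in PE. Most of the gain in this sum was that of Myh6, and the median log2 change of the markers was 0.05, or -0.11 under equal totals. Of 12 such genes 3 were called higher and 1 lower (2 and 2 under equal totals), and cardiac troponin I, Tnni3 (43757 and 42159), was not called. Endothelial markers rose in 11 of 14 cases and fell in 1 (9 under equal totals), from a sum of 6616 to 7731 in PBS to 12329 to 13962 in PE. VE-cadherin, Cdh5, had 484, 588 and 504 in PBS and 1913, 1565 and 1775 in PE (log2 change 1.74 ± 0.13, adjusted p = 5.3e-09), and Emcn (243 to 876, log2 change 1.84), Flt1 (399 to 1164, log2 change 1.54) and Pecam1 (311 to 894, log2 change 1.53) rose as well. The part of endothelial cell number in the other results was not tested. Epicardial sums went from 8746 to 9259 down to 8149 to 8232, with Muc16 (265 to 57.4, log2 change -2.22) and Upk3b (1722 to 757, log2 change -1.18) lower. Schwann cell sums went from 125 to 163 in PBS to 76.0 to 89.4 in PE, and erythroid sums from 4.72 to 8.54 to 11.9 to 23.7, with Hbb-bt near 0.

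Detoxifying enzymes fell in 20 of 35 cases and rose in 7 (22 and 4 under equal totals). The aldehyde dehydrogenase Aldh3a1 had 290.3, 294 and 311 in PBS and 18.3, 14.9 and 21.7 in PE (log2 change -3.97 ± 0.24, adjusted p = 4.8e-10), without overlap, and the glutathione transferases Gsta3 (148 to 16.1, log2 change -3.26) and Gstt1 (142 to 24.4, log2 change -2.54) fell too, families in which similar members may share reads. Heme oxygenase Hmox1 rose (1679, 1897 and 1702 in PBS and 6292, 5914 and 5796 in PE, log2 change 1.77 ± 0.10, adjusted p = 1.4e-10). ABC transporters fell in 9 of 20 cases and rose in 5. Abca8a (209 to 11.5, log2 change -4.13) and Abca9 (224 to 38.7, log2 change -2.50) fell, and the export pumps Abcc1 (937 to 2305, log2 change 1.31) and Abcb1a (7.94 to 24.7, log2 change 1.76) rose. In complement, the classical pathway protease C1s1 (121 to 14.4, log2 change -3.01) and the components C4b (19.3 to 1.42, log2 change -3.52) and C3 (1882 to 530.0, log2 change -1.83) fell while the C1q chains rose.

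Of 30 mitotic and replication genes 3 rose and 4 fell (0 and 10 under equal totals). The share called, 23.3%, was near the 25.4% of all genes tested and below the 36.1% of those with a mean of at least 50. The cell cycle inhibitor Cdkn1c fell (1077 to 463, log2 change -1.21). Among clock genes Bhlhe40 (1983 to 4167, log2 change 1.08), Per2 (242 to 491, log2 change 1.02) and Per1, with 667, 788 and 645 in PBS and 1452, 1307 and 1234 in PE (log2 change 0.93 ± 0.18, adjusted p = 0.00052), rose and Per3 fell (823 to 409, log2 change -1.01). Among BCL2 family and other cell death genes 6 of 27 rose and 7 fell (4 and 10 under equal totals), with the BH3-only gene Bmf (149 to 36.5) lower and Bax (1780.4 to 2849.9, log2 change 0.68) higher. Genes of the imprinted Dlk1 region fell: the noncoding RNAs Meg3 (1897, 2061 and 2092 in PBS and 726, 751 and 744 in PE, log2 change -1.44 ± 0.14, adjusted p = 3.6e-07), Rian (1969 to 746, log2 change -1.41) and Mirg (129 to 46.2, log2 change -1.44) and, as above, Dlk1. Over the whole list of long noncoding RNAs, 6 of 20 tested rose and 3 fell (45.0% called). Their median log2 change was 0.23, or 0.07 under equal totals. Ephrins and Eph receptors fell in 8 of 16 cases and rose in 3. The ephrin Efnb3 fell most (1286 to 212, log2 change -2.58), and the receptor Epha2 rose (703 to 2561, log2 change 1.86). Of 27 semaphorin, plexin and neuropilin genes 9 fell and 4 rose. The shares called, 48.1% of this list and 48.1% of the cell death list, stood against the 36.1% above. The adenosine receptor Adora1 rose (627, 792 and 666 in PBS and 1999, 1944 and 2116 in PE, log2 change 1.54 ± 0.12, adjusted p = 7e-09) with the nucleotidase Entpd1 (56.4 to 158, log2 change 1.49), and the mineralocorticoid receptor Nr3c2 fell (151 to 42.6, log2 change -1.81).

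With the lincRNA-p21 GapmeR, PE moved 5967 of the genes tested (27.4%). Of these 3805 were also called with the negative control, 68.6% of the control calls and 63.8% of the knockdown calls, and 3796 of the 3805 went the same way. Among all 5543 control calls 5276 (95.2%) had the same sign with the knockdown. A difference in response was tested directly by the interaction term, which called 12 genes (0.055%), and between 3 and 22 with 1 library left out. Nppb changed by 2.87 ± 0.13 with the control and 2.75 ± 0.13 with the knockdown (interaction -0.12 ± 0.18, adjusted p = 0.88) and Insig1 by -1.52 ± 0.10 and -1.95 ± 0.10 (interaction -0.44 ± 0.14, adjusted p = 0.35). For neither gene was a difference called, which does not show that the responses are equal.

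**Figure D5:**
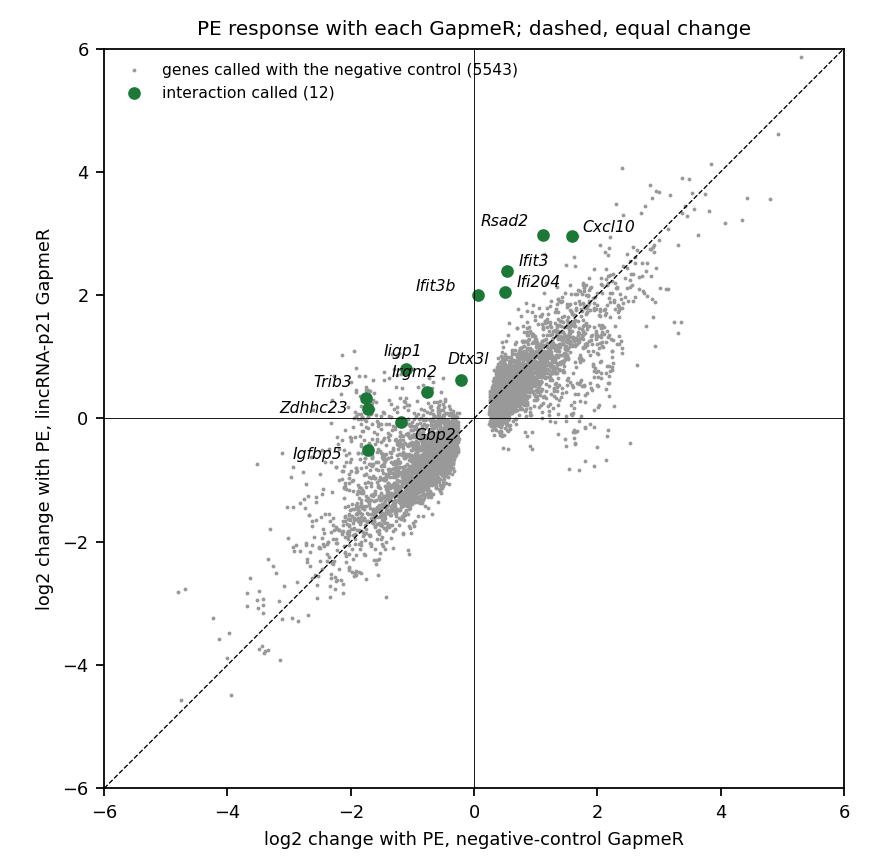
Log2 change with PE under the lincRNA-p21 GapmeR (y axis) against that under the negative control (x axis) for the 5543 genes called with the control (grey), with the 12 genes called in the interaction in green and a dashed line of equal change. The gap around 0 on the x axis follows from showing called genes, and all 12 green points lie above the line.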

How the data were processed

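Polyadenylated RNA was extracted with TRIzol and sequenced as paired-end libraries by BGI, per the labels. The submitters' processing notes name STAR, SAMtools, featureCounts and the build GRCm38.p6. Software versions, annotation release and strandedness are not given in the sources used here. A table that the authors deposited gives as signal the read counts of 55416 genes in 12 libraries divided by 1 size factor per library. It holds 0 columns of no sample. Whole reads were recovered for 100% of values (tolerance 0.001), with factors of 0.921 to 1.11.

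The test was limma 3.58.1 (trended prior) on log2(value + 1) for the 21799 genes whose mean reached 1. A model of 4 group means, without covariates, was fitted to all 12 libraries, with Benjamini-Hochberg adjustment at 0.05, two-sided. With 3 libraries per group, smaller differences than the spread of these libraries could not be called. The fit was tested on simulated data of 21360 genes for PE against PBS in control cells. It found 44.8% of 1.5-fold (67 genes), 95.5% of 2-fold (67 genes) and 100% of 4-fold changes (66 genes), with 15 calls among unchanged genes. The lowest expressed genes were given no change, so these rates do not cover them. Far fewer genes changed in the simulation than were called here, and counts were drawn independently for each library. Identifiers were matched without version to GENCODE M21 (GRCm38), which named 52135 genes. The other 3281 carried 0.195% of the signal. Promoter windows came from RefSeq (GRCm38.p6) and were searched on both strands.

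The members and lists were chosen with earlier results of these data known, and some lists are known target genes of a factor. Named were 9 genes fixed by hand, the 15 highest and 15 lowest called genes, the 12 largest gains and 12 largest losses in counts, and the 6 largest called changes of each list. Some genes this rule names are not reported here. Chosen after their values were seen were Bax, Col12a1, Csf1r, Cxcl2, Erbb4, Hbb-bt, Jph2, Kcnd2, Kcnj3, Lifr, Maf1, Mmp2, Mmp3, Myh9, Postn, Ptprc, Tead2, Thbs2, Thy1 and Tnni3.

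Alternatives were another pseudocount (0.1), no filter or a stricter one, edgeR 4.0.16 (median-of-ratios, TMM or total scaling), DESeq2 1.42.0 and limma-voom on recovered reads, values rescaled to equal totals with or without mitochondrial genes, only the 6 libraries, a block for the replicate number, a required 1.5-fold change, each library left out, and 3 distant libraries left out together (replicate 2 of PBS control and of PBS knockdown, and replicate 1 of PE knockdown). Where a group was left with 2 libraries, the fit pooled the spread over groups.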

Additional observations from a re-analysis of the deposited data

Results flagged for a closer look

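The difference between the PE responses with the 2 GapmeRs was called by the interaction term of limma for 12 genes, each of them higher, relative to the control response, with the lincRNA-p21 GapmeR. Every value below is the log2 change with PE in control cells, then in knockdown cells, then the interaction with its standard error and adjusted p.

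As background, 9 of the 12 are known as genes that interferon induces, a grouping made after the calls were seen. Ifit3 changed by 0.54 ± 0.19 and 2.39 ± 0.19 (interaction 1.85 ± 0.26, adjusted p = 0.0083). Its neighbour and near copy Ifit3b changed by 0.06 ± 0.19 and 2.00 ± 0.19 (interaction 1.94 ± 0.26, adjusted p = 0.0067), and reads of the pair may be shared. Rsad2 changed by 1.12 ± 0.23 and 2.98 ± 0.23 (interaction 1.86 ± 0.32, adjusted p = 0.026), Ifi204 by 0.51 ± 0.19 and 2.05 ± 0.19 (interaction 1.55 ± 0.26, adjusted p = 0.026) and Cxcl10 by 1.58 ± 0.16 and 2.95 ± 0.16 (interaction 1.37 ± 0.22, adjusted p = 0.02). Cxcl10 overlaps Art3, whose mean over the 12 libraries was 2141 against 212 for Cxcl10, and their reads may be shared. The guanylate-binding and related GTPases Iigp1 (-1.11 ± 0.20 and 0.80 ± 0.20, interaction 1.91 ± 0.29, adjusted p = 0.011), Irgm2 (-0.76 ± 0.15 and 0.43 ± 0.15, interaction 1.19 ± 0.21, adjusted p = 0.033) and Gbp2 (-1.18 ± 0.12 and -0.06 ± 0.12, interaction 1.12 ± 0.18, adjusted p = 0.015) and the ubiquitin ligase Dtx3l (-0.22 ± 0.10 and 0.62 ± 0.10, interaction 0.84 ± 0.14, adjusted p = 0.02) complete the 9. Dtx3l and Irgm2 overlap Parp9 and Igtp, also with reads that may be shared.

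The remaining 3 fell with PE in control cells. The stress-responsive pseudokinase Trib3 changed by -1.75 ± 0.12 and 0.33 ± 0.12 (interaction 2.08 ± 0.17, adjusted p = 6.2e-06), the palmitoyltransferase gene Zdhhc23 by -1.71 ± 0.20 and 0.16 ± 0.20 (interaction 1.87 ± 0.28, adjusted p = 0.011) and the IGF-binding protein Igfbp5 by -1.72 ± 0.15 and -0.52 ± 0.15 (interaction 1.20 ± 0.21, adjusted p = 0.026). With each of the 12 libraries left out in turn, Trib3, Ifit3 and Ifit3b were called in all 12 fits, Zdhhc23 in 11, Iigp1 in 10, Gbp2 and Cxcl10 in 7, Dtx3l and Igfbp5 in 6, Rsad2 in 5, and Ifi204 and Irgm2 in 3. The number of genes called was 3 without PBS control replicate 3, 4 without PE control replicate 2, 5 without PE control replicate 3 or PBS knockdown replicate 3, 6 without PBS control replicate 1 and 7 without PE knockdown replicate 2. It was 20 without PBS knockdown replicate 1, 21 without PBS knockdown replicate 2 and 22 without PE control replicate 1.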

How the results depend on the processing

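The count of 5543 genes kept within 1.5 times of itself in every alternative run except a required fold change of at least 1.5, which left 952 (476 higher, 476 lower, and 1 in the interaction). The balance of directions moved with scaling: 1681 higher and 4289 lower with values rescaled to the same total, 1617 and 4620 with mitochondrial genes left out of that total, and 1661 and 4296 by edgeR on library totals. With each library left out, calls ran from 4263 (without PBS control replicate 1) to 6552 (without PBS knockdown replicate 2), 2068 to 3289 higher and 2155 to 3263 lower, and the interaction from 3 to 22. The interaction rose to 20 with mitochondrial genes left out of the total, 124 by DESeq2 and 143 without 3 distant libraries; the cause was not tested. Of 283 tested genes in the text, 274 were called for PE against PBS in control cells. Of these, 69 lost the call under the fold requirement, and the other alternatives took it only from Ifit3, whose change in control cells was not called by limma-voom, under total scaling, without a filter or without any of 5 libraries. No named call changed direction.

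With a replicate block 5171 genes were called, 2533 of them higher, and 12 in the interaction. The replicate numbers showed no pairing of the PBS and PE control libraries: deviations of those with the same number correlated at -0.134, -0.278 and -0.151. Over the other pairs of groups, same-numbered libraries correlated at -0.435 to 0.409. With 3 libraries per group such correlations cannot exclude a pairing. Depth limits the lowest genes, of which 6.46% were called between 1 and 10 counts.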
